A study of Mus musculus with 21 samples.

Results

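The transcription factor genes Gata4 and Runx3 were followed window by window and sample by sample through the lists of regions that differed in DNA methylation between intestinal adenoma and normal intestine of the mouse. Members were all listed regions that touched either gene or the 1000 bp upstream of it, 12 of the 31670 regions listed in all, namely 8 of 17690 windows of 500 bp and 4 of 13980 regions merged from such windows. Gata4 held 5 windows and 2 merged regions, all higher in adenoma (hyper), and Runx3 held 1 hyper window, 2 windows lower in adenoma (hypo) and 2 merged regions. Every window had been selected on its difference between adenoma and normal samples, so that difference is given here as a description with no test.

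GATA4 is a zinc finger transcription factor that binds GATA motifs in DNA. It is known for its part in heart and endoderm development and in keeping the regional identity of the small intestinal epithelium, where it is found in the proximal part and is low in the distal ileum. RUNX3 is a runt domain transcription factor that binds DNA together with its partner CBFB, acts in lymphocyte, neuronal and epithelial differentiation, and is transcribed from a distal and a proximal promoter that give proteins with different N-termini. Both human genes are known for promoter methylation in gastrointestinal cancers. In methylated DNA immunoprecipitation followed by sequencing (MeDIP-seq), an antibody against 5-methylcytosine pulls down methylated fragments, and the read density of a window rises with its number of methylated CpG sites.

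All mice were male C57BL/6J animals of 15 to 19 weeks and all samples came from the ileum. Normal intestine was taken from 3 wild type Apc-+/+ mice (B1, B2 and B3, here B6 normal) and from 3 Apc-Min/+ mice (N4, N5 and N6, here ApcMin normal), which carry a germline truncating mutation of the tumour suppressor Apc and form intestinal adenomas. The 5 adenomas (Ad4, Ad4-1, Ad5, Ad6 and Ad7) came from 4 Apc-Min/+ mice; Ad4 and Ad4-1 are separate tumours of animal 4, and animals 4, 5 and 6 also gave the normal samples of the same number. Tissue pieces were homogenised whole, so that fewer methylated cells and less methylation per cell cannot be told apart. Input DNA without immunoprecipitation was sequenced for B3, N4 and Ad7. Values are the authors' rpm, the mean read coverage of a window scaled to the number of uniquely aligned reads of its library. Log2 ratios compare the mean of the adenomas with the mean of the 6 normal samples after adding 0.05 rpm to each mean.

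Gata4 (ENSMUSG00000021944) lies on the minus strand of chromosome 14, from 63817759 to 63890529 in mm9. All 5 listed windows lay side by side between 63859001 and 63860750, over exon 2 of the gene. They are numbered 1 to 5 by rising coordinate, against the direction of transcription. This exon runs from 63859373 to 63860482 in 3 transcript models, and holds the end of the 5′ untranslated region and the first coding bases of 6 of the 7 annotated transcripts. The exon lies downstream of the cluster of start sites at 63864085 to 63864108, with the window midpoints 3584.5 to 4834.5 bp from the start site at 63864085. The windows covered a single CpG island of 1449 bp (63859282 to 63860730) with 90 CpG sites. The start of the coding exon is printed here because it lies in windows 2 and 3, which had the highest mean signal in adenoma; all of it is in window 3 and 250 of its 300 bases are also in window 2. It is the reference sequence of chr14:63859751-63860050 (mm9, minus strand, read along the gene), with its 29 CpG sites in capitals, and the start codon atg begins at its base 66.

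Gata4 exon 2: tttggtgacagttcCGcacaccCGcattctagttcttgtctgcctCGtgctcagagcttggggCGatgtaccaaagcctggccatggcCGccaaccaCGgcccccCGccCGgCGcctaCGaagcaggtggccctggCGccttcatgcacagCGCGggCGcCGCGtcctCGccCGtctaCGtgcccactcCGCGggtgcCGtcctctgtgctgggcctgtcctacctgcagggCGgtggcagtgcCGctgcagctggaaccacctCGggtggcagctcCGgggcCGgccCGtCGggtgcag

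Runx3 (ENSMUSG00000070691) lies on the plus strand of chromosome 4, from 134676567 to 134733905. Its hyper window covered 134676751 to 134677250, with its midpoint 433.5 bp downstream of the distal start site. Of its bases, 328 belonged to exon 1, among them 58 coding bases, and none lay in a CpG island. Its hypo windows, 134688501 to 134689000 and 134688751 to 134689250, lay in the first intron of the distal transcript, 12183.5 and 12433.5 bp from the distal start site. The first 300 bases of the hyper window (chr4:134676751-134677050, mm9, plus strand) hold 8 CpG sites, in capitals, and the start codon atg of the distal transcript begins at base 271. For comparison, the sequence around the proximal start site at 134708411 (chr4:134708261-134708560, plus strand), in which no window was listed, holds 52.

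Runx3 exon 1: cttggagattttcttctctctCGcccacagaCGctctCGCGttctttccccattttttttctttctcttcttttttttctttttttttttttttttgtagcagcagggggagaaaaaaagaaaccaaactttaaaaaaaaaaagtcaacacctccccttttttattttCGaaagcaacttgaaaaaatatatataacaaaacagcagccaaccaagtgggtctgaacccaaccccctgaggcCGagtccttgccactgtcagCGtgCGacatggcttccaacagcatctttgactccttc

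Runx3 proximal start site: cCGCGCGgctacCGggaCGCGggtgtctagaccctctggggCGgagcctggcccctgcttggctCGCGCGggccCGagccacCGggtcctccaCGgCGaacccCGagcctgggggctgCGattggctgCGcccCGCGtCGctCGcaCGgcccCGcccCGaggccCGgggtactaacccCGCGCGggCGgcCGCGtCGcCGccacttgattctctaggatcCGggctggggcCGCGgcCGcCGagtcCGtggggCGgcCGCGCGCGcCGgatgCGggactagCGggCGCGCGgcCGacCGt

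**Figure D1:**
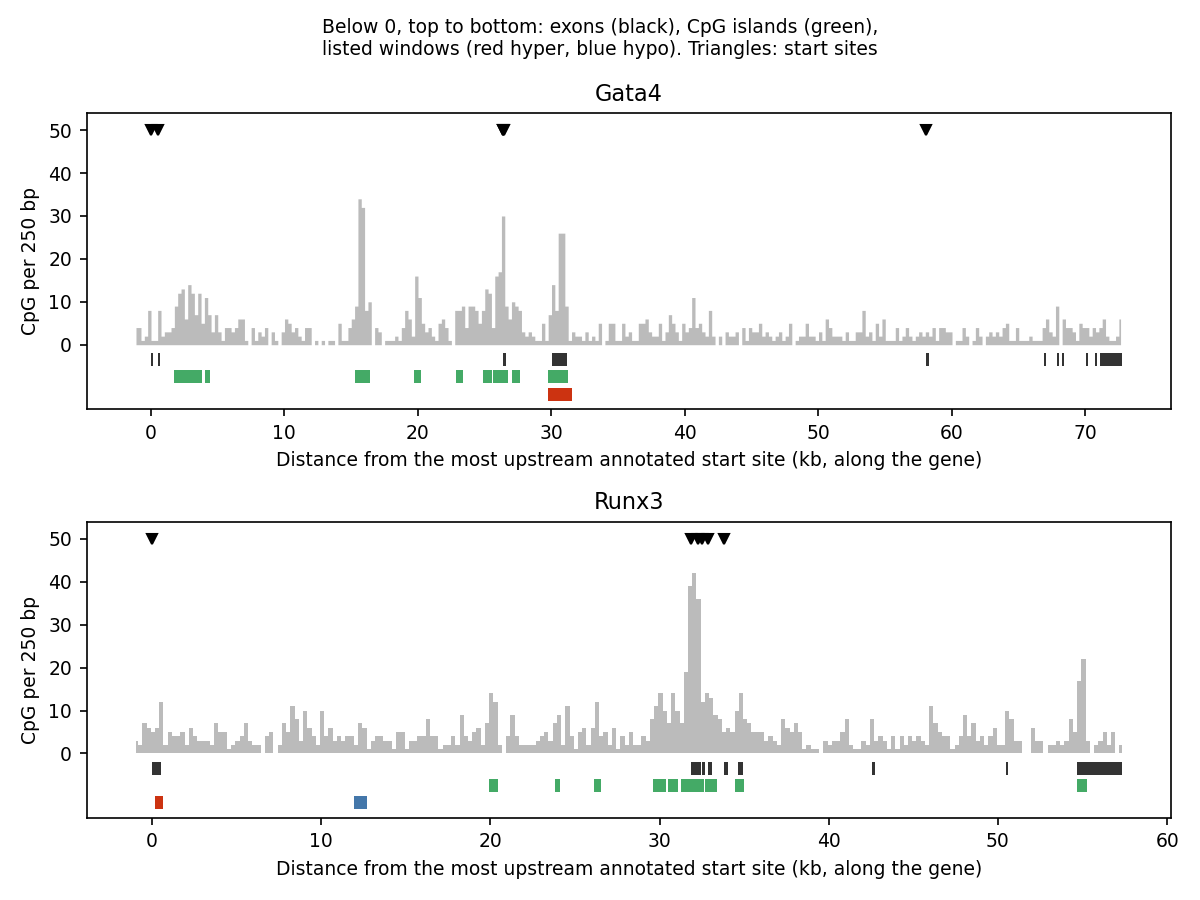
CpG sites per 250 bp (grey, y axis) along Gata4 (top) and Runx3 (bottom), against the distance from the most upstream annotated start site (x axis, kb); exons in black, CpG islands in green, listed windows in red (hyper) and blue (hypo), and start sites as triangles. The 5 Gata4 windows sit on 1 of 10 islands of the gene, and the 3 Runx3 windows sit on none of its 9 islands.

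Gata4 held most of the windows with the highest log2 ratios of the hyper list. Its 5 windows took ranks 1, 2, 4, 5 and 6 of 6123 hyper windows by log2 ratio, with rank 3 held by a window at Onecut3, a homeobox factor gene. With 0.01 rpm added in place of 0.05 the ranks were 2, 5, 8, 10 and 13, and by the plain difference of means in rpm they were 1, 2, 4, 7 and 80. In 4 of the 5 adenomas the signal was 0.72 to 3.64 rpm, against 0.01 to 0.20 rpm in 5 of the 6 normal samples. The remaining adenoma, Ad6, stayed at 0.10 to 0.27 rpm, and the remaining normal sample, B2, reached 0.14 to 0.74 rpm. Adenoma and normal samples therefore overlapped in all 5 windows, through this pair of samples.

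Window 1 (63859001 to 63859500, 10 CpG sites) covers the end of the coding exon and the intron behind it. It held 0.06, 0.14 and 0.07 rpm in B1, B2 and B3, 0.02, 0.05 and 0.06 rpm in N4, N5 and N6, and 0.72, 0.85, 0.84, 0.10 and 1.20 rpm in Ad4, Ad4-1, Ad5, Ad6 and Ad7. All adenomas but Ad6 lay at least 0.72 rpm high, and Ad6 lay below B2 and above the other 5 normal samples. The log2 ratio was 2.76, with a mean of 0.742 ± 0.401 rpm (SD, n = 5) in adenoma and 0.0667 ± 0.0398 rpm (SD, n = 6) in normal intestine.

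Window 2 (63859501 to 63860000) is the most CpG-rich of the 5, with 52 sites, and 485 of its bases are coding. It held 0.04, 0.58 and 0.01 rpm in B1 to B3, 0.03, 0.04 and 0.06 rpm in N4 to N6, and 2.96, 2.70, 3.64, 0.12 and 3.41 rpm in Ad4, Ad4-1, Ad5, Ad6 and Ad7. This window had the highest log2 ratio of the hyper list, 3.89, with means of 2.57 ± 1.42 rpm (SD, n = 5) against 0.127 ± 0.223 rpm (SD, n = 6). B2 stood 16.1-fold above the mean of the other 5 normal samples here, which was 0.036 rpm.

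Window 3 (63859751 to 63860250, 34 CpG sites) spans the start codon. It held 0.09, 0.74 and 0.05 rpm in B1 to B3, 0.18, 0.13 and 0.09 rpm in N4 to N6, and 3.34, 2.73, 3.45, 0.23 and 3.24 rpm in the adenomas in the same order. The log2 ratio was 3.33. Ad6 exceeded the highest normal sample other than B2 by 0.05 rpm.

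Window 4 (63860001 to 63860500, 22 CpG sites) covers 482 bases of untranslated exon. It held 0.10, 0.61 and 0.06 rpm in B1 to B3, 0.20, 0.19 and 0.17 rpm in N4 to N6, and 2.65, 2.09, 2.12, 0.27 and 2.35 rpm in the adenomas, a log2 ratio of 2.84. Window 5 (63860251 to 63860750, 21 CpG sites) reaches into the first intron. It held 0.12, 0.51 and 0.01 rpm in B1 to B3, 0.13, 0.15 and 0.14 rpm in N4 to N6, and 2.36, 1.92, 2.13, 0.18 and 1.91 rpm in the adenomas, a log2 ratio of 2.95. In both windows Ad6 again lay between B2 and the rest of the normal samples.

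**Figure D2:**
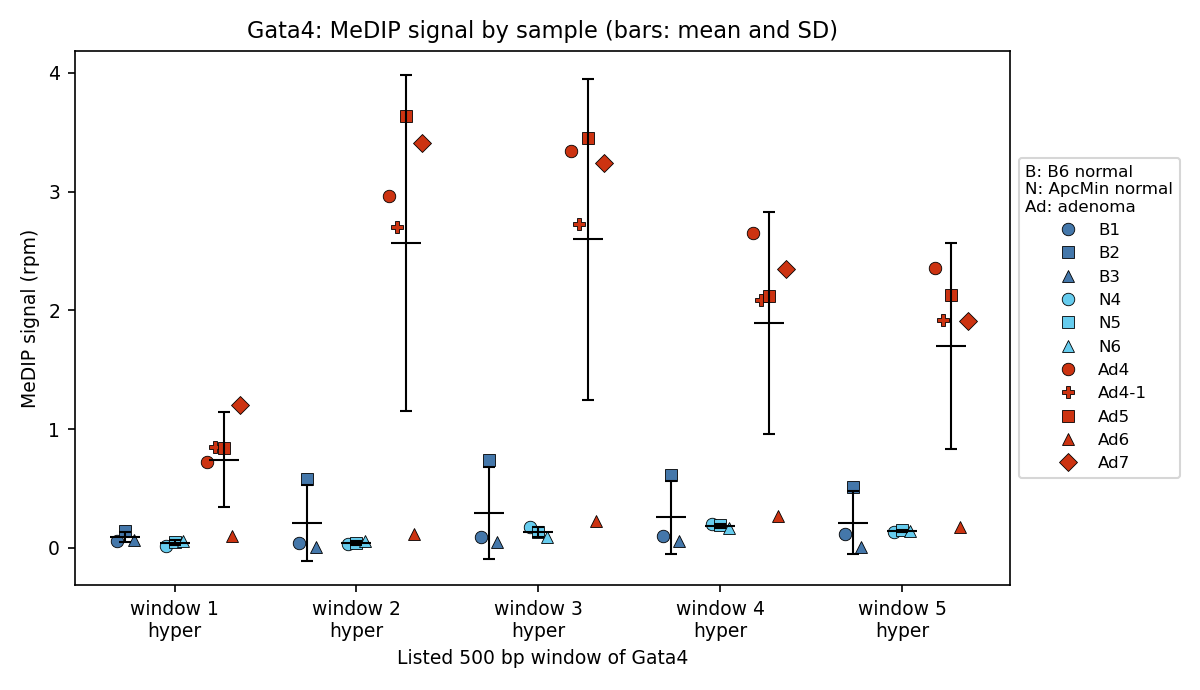
MeDIP signal (y axis, rpm) of every sample in the 5 listed Gata4 windows (x axis); points are samples, blue for B6 normal, light blue for ApcMin normal and red for adenoma, and bars give the mean and SD of each group. Ad6 (red triangle) lies at 0.10 to 0.27 rpm in all 5 windows, while the other 4 adenomas lie at 0.72 to 3.64 rpm.

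Windows 2 to 5 were merged into 1 region of 81 CpG sites from 63859501 to 63860750. It held 0.09, 0.60 and 0.03 rpm in B1 to B3, 0.15, 0.14 and 0.12 rpm in N4 to N6, and 2.80, 2.40, 2.79, 0.21 and 2.79 rpm in the adenomas, and its log2 ratio of 3.24 ranked 1 of 5135 merged hyper regions. Window 1 stayed apart as a merged region of its own, at rank 2, since the window from 63859251 to 63859750, which overlaps both, was not listed. With all samples, the larger region had 2.20 ± 1.12 rpm (SD, n = 5) in adenoma against 0.188 ± 0.206 rpm (SD, n = 6) in normal intestine. Without Ad6 and B2 together, an omission chosen after seeing the data, its log2 ratio was 4.14. The means were then 2.69 ± 0.197 rpm (SD, n = 4) in adenoma against 0.106 ± 0.0483 rpm (SD, n = 5) in normal intestine. Leaving out the overlapping pair raises the ratio by construction.

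The shape of the profile along the exon differed between the same samples. Ad5 and Ad7 had their highest signal in window 2 and Ad4 and Ad4-1 in window 3, as did B2. Ad6 had its highest signal in window 4, as did N4, N5 and N6, while B1 was highest in window 5 and B3 in window 1. The peak position of these low samples rests on little signal, and the 0.20 rpm of N4 in window 4 lay below its own input of 0.29 rpm. The signal of the CpG-rich window 2 divided by that of window 4 was 1.12 to 1.72 in Ad4, Ad4-1, Ad5 and Ad7, and 0.95 in B2. It was 0.44 in Ad6 and 0.15 to 0.40 in the other 5 normal samples, all at low signal.

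Over the hyper list as a whole, which was itself selected with Ad6 among the adenomas, Ad6 lay close to the others in its median. Its place between the normal mean (0%) and the mean of the other 4 adenomas (100%) had a median of 87.7% over all 6123 hyper windows, against medians of 89.0% to 105% for the other 4 adenomas placed in the same way. In the Gata4 windows its place was -0.22% to 3.99%, and 6 of the 6123 windows, 0.0980%, had a place at or below the highest of these values. This measure divides by the gain of the other 4 adenomas, which was large at Gata4. The listing also limits how far Ad6 can fall among the normal samples. A place near 0% is therefore hard to reach where the gain is small, and 0.0980% does not measure how unusual Ad6 was at Gata4. The other 4 adenomas had a mean at least 4-fold above normal (rpm + 0.05) in 20 windows, and Ad6 alone lay within the range of the normal samples in 5 of them, all 5 in Gata4. Neighbouring windows overlap by 250 bp and share fragments, so the 5 windows are 1 locus and not 5 observations.

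**Figure D3:**
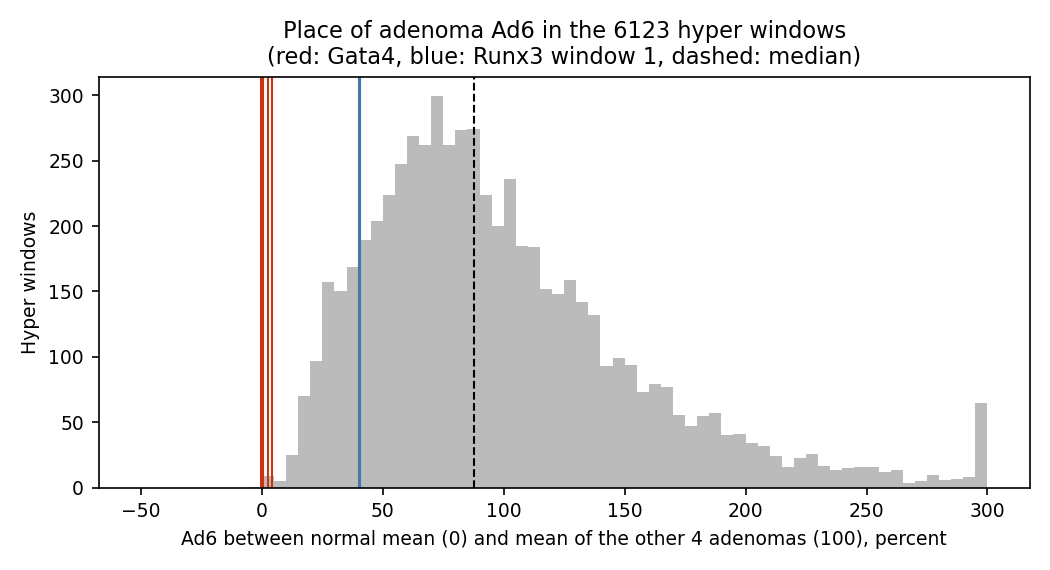
Number of hyper windows (y axis) by the place of Ad6 between the mean of the 6 normal samples (0) and the mean of the other 4 adenomas (100) in percent (x axis); values above 300 are drawn in the last bin. The red lines of Gata4 lie at -0.22% to 3.99%, the blue line of Runx3 window 1 at 40.3% and the dashed median at 87.7%.

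B2 had more signal than the other normal samples at Gata4 and less than 4 of the 5 adenomas. Its signal was 15.5% to 26.5% of the mean of Ad4, Ad4-1, Ad5 and Ad7 over the 5 windows. Over all hyper windows, its place between the other normal samples and the adenomas had a median of 9.33% and an interquartile range of -21.0% to 35.3%, which holds its place of 12.8% to 26.6% in the Gata4 windows, and 46.5% of the hyper windows had a place at or above the lowest of these. This measure divides by the gain in adenoma, which was large at Gata4, so it cannot show whether B2 was unusual there. In rpm, B2 stood 2.69-fold (window 1) to 16.1-fold (window 2) above the mean of the other 5 normal samples. Exactly 1 pair of an adenoma and a normal sample was out of order in 2437 hyper windows, and among the 30 possible pairs Ad6 with B2 was the most frequent, at 150 windows including the 5 of Gata4. The rank test used to list the windows itself limits how many such pairs a listed window can have.

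Within animals that gave both tissues, the adenoma of animal 4 (mean of its 2 tumours) had 2.60 rpm in the larger merged region against 0.15 rpm in its normal intestine, and that of animal 5 had 2.79 against 0.14 rpm. In animal 6 the values were 0.21 and 0.12 rpm. The sample titles carry a MeDIP number whose meaning the labels do not state: it is 10 for Ad6 and B3, 9 for Ad5, N5 and N6, 2 for Ad7 alone, and 4 for the other 5 samples. The samples of number 4 alone, with 2 adenomas and 3 normal samples, gave a log2 ratio of 3.01 for this region. Of the samples of number 10, Ad6 had 0.21 rpm and B3 had 0.03 rpm, and the part of whatever the number marks in the low value of Ad6 was not tested.

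Input DNA had 0.00 to 0.07 rpm over the 5 Gata4 windows in Ad7, 0.08 to 0.29 rpm in N4 and 0.00 to 0.31 rpm in B3. The MeDIP signal of Ad7 was 1.20 to 3.41 rpm in the same windows. The MeDIP signal of N4, 0.02 to 0.20 rpm, and of B3, 0.01 to 0.07 rpm, stayed below the highest input value of the same sample.

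The differences at Runx3 were small and of both signs. The hyper window at the distal start site was 1.49-fold higher in adenoma and the intronic hypo windows were 1.46-fold and 1.49-fold lower. These sizes were below the medians of the lists, 1.57-fold over the hyper windows and 1.70-fold over the hypo windows. The smallest ratio of group means among the listed windows was 1.32 in both lists. A ratio below that of the Runx3 window was found for 34.2% of the hyper windows, and a ratio below the larger of its hypo windows for 21.1% of the hypo windows.

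The hyper window of Runx3 (18 CpG sites) held 0.64, 0.81 and 0.80 rpm in B1 to B3, 0.79, 0.77 and 0.46 rpm in N4 to N6, and 1.06, 1.02, 1.14, 0.87 and 1.20 rpm in Ad4, Ad4-1, Ad5, Ad6 and Ad7. All adenomas lay above all normal samples, Ad6 being the lowest adenoma and 0.06 rpm above B2. The means were 1.06 ± 0.126 rpm (SD, n = 5) and 0.712 ± 0.138 rpm (SD, n = 6), a log2 ratio of 0.54 at rank 3434 of the hyper list. N6 was the lowest normal sample, and 5 of the 6 normal samples lay at 0.64 rpm or above, while no normal sample but B2 passed 0.20 rpm in a Gata4 window. Input was 0.12 to 0.34 rpm.

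The hypo window 2 of Runx3 (9 CpG sites) held 0.38, 0.34 and 0.29 rpm in B1 to B3, 0.39, 0.26 and 0.29 rpm in N4 to N6, and 0.18, 0.24, 0.20, 0.22 and 0.27 rpm in the adenomas, a log2 ratio of -0.46. The groups overlapped by 0.01 rpm through Ad7 and N5. The hypo window 3 (13 CpG sites) held 0.54, 0.45 and 0.64 rpm in B1 to B3, 0.60, 0.52 and 0.42 rpm in N4 to N6, and 0.37, 0.35, 0.26, 0.40 and 0.39 rpm in the adenomas, a log2 ratio of -0.52. Here no adenoma reached the lowest normal sample. Ad6 was the highest adenoma in window 3 and lay in the middle of the adenomas in window 2. The merged region had a log2 ratio of -0.50. Input of Ad7, N4 and B3 was 0.00, 0.08 and 0.25 rpm in window 2 and 0.00, 0.12 and 0.19 rpm in window 3. In window 2 the input of B3 lay near its own MeDIP signal of 0.29 rpm. It also lay above the MeDIP signal of every adenoma but Ad7, so these differences lie close to an input level.

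**Figure D4:**
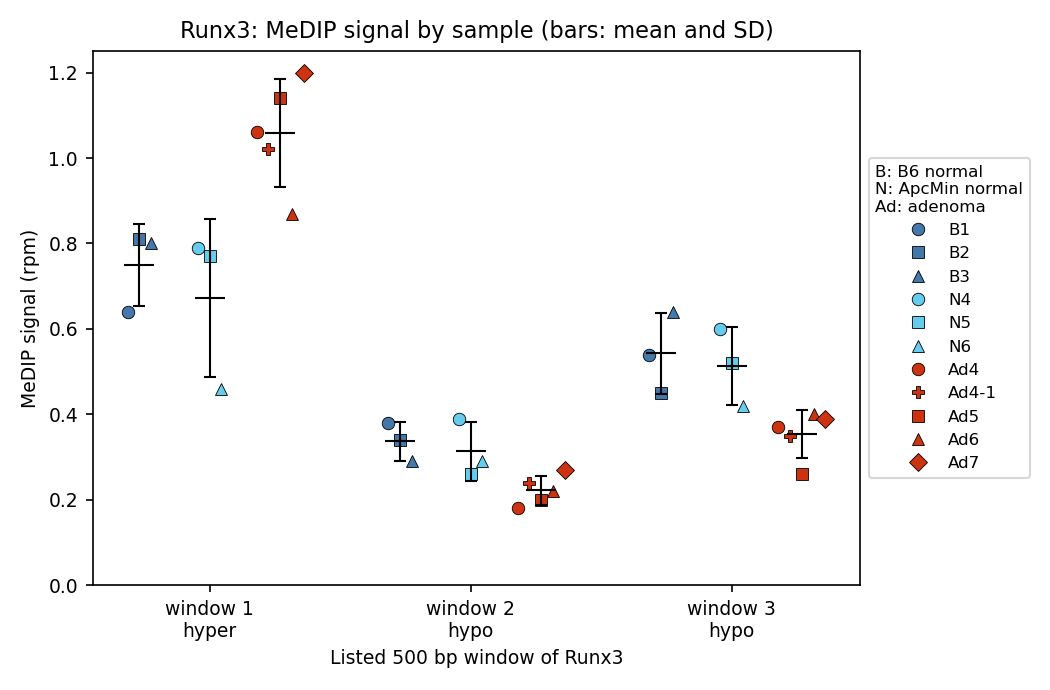
MeDIP signal (y axis, rpm) of every sample in the 3 listed Runx3 windows (x axis), drawn with the same symbols as for Gata4; bars give the mean and SD of each group. Adenomas lie at 0.87 to 1.20 rpm against 0.46 to 0.81 rpm in normal intestine in window 1, and at 0.26 to 0.40 rpm against 0.42 to 0.64 rpm in window 3.

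Counted over samples, adenoma and normal samples did not overlap in 0 of the 5 Gata4 windows, in the 1 hyper window of Runx3 and in 1 of its 2 hypo windows. The same held for 43.6% of all listed hyper windows and 51.6% of all listed hypo windows, a contrast that the listing itself used. Without Ad6, or without B2, all 5 Gata4 windows were free of overlap, which follows from the single overlapping pair in each. Without N5, or without Ad7, both hypo windows of Runx3 were. The coefficient of variation over the 5 adenomas was 49.4% to 55.2% in the Gata4 windows and 11.9% to 15.8% in the Runx3 windows, against a median of 16.1% over all hyper windows and 23.6% over all hypo windows.

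CpG content was not itself a listing criterion, but the minimum signal of the listing favours windows with more methylated CpG sites. Most of the listed windows of both genes were rich in CpG sites. Gata4 window 2 had more CpG sites than 99.9% of the windows of the genome placed in the same way and more than 99.6% of the listed hyper windows. Gata4 window 1 had more than 66.6% of the listed hyper windows, and Runx3 window 2 more than 54.1% of the listed hypo windows. For the remaining windows this share was 86.1% to 97.7% of the listed windows of the same direction. The listed Gata4 windows held 10 to 52 sites and those of Runx3 9 to 18, against a median of 8 in both lists. The antibody binds methylated cytosines, so that the same share of methylation gives more signal in a window with more CpG sites, and rpm values of the windows are not methylation levels that can be compared with each other.

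**Figure D5:**
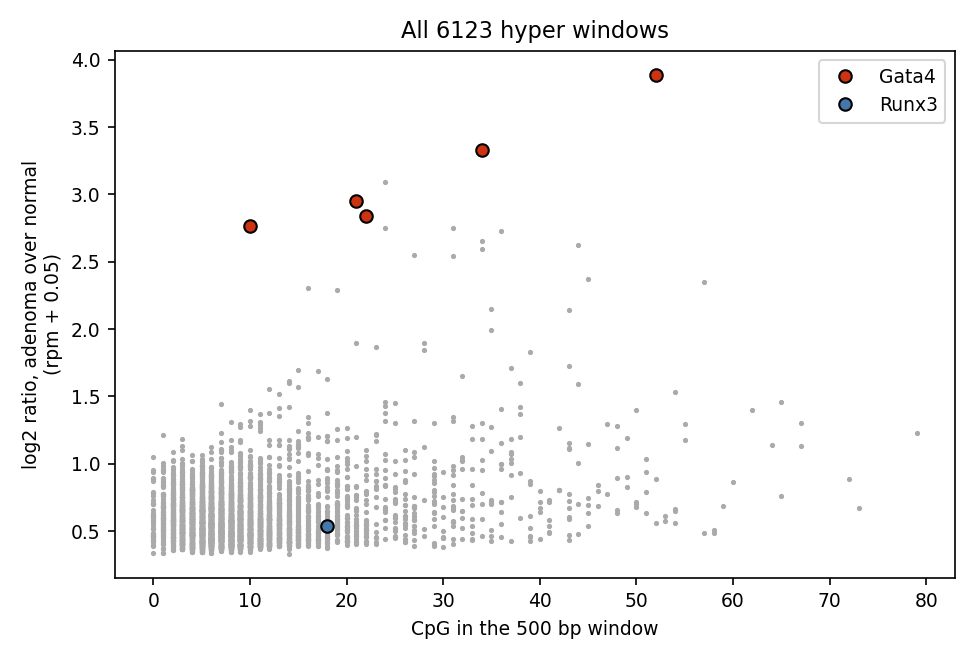
Log2 ratio of adenoma over normal (y axis, means in rpm + 0.05) against the number of CpG sites (x axis) for the 6123 hyper windows, with Gata4 in red and Runx3 in blue. The Gata4 windows lie at log2 ratios of 2.76 to 3.89 with 10 to 52 CpG sites, and the Runx3 window at 0.54 with 18.

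Most CpG-rich sequence of either gene was not listed. An unlisted window was the usual case, since 17690 of 10619552 windows of the genome were listed. Of 297 windows that touch Gata4 or its upstream sequence, 5 (1.68%) were listed. Among the 297, 19 held at least 20 CpG sites, and 4 of these 19 were listed. The gene had 10 CpG islands by sequence (the union of overlapping stretches of 300 bp that each had a GC content of 50% or more and CpG at 0.6 or more of the number expected from it, so that a whole island can fall below these limits), of which 1 held listed windows. The island over the start sites at 63864085 to 63864108, from 63863730 to 63864870 with 73 CpG sites, held none. Of 235 windows of Runx3, 3 (1.28%) were listed. Among the 235, 19 held at least 20 CpG sites and none of these 19 was listed. They include those over the 1356 bp island with 152 CpG sites (134707835 to 134709190) at the proximal start site. A window that was not listed missed at least 1 of the listing criteria in these samples, and its rpm values were not analysed here.

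Around Gata4, the nearest listed windows outside the gene were a hypo window 6.01 kb away at Neil2, a DNA glycosylase gene (63811251 to 63811750, log2 ratio -0.59), and a hyper window 22.7 kb away on the upstream side (63913251 to 63913750, 0.65). Around Runx3 they were hypo windows 92.8 kb upstream (134583251 to 134583750, -1.11) and 13.6 kb downstream (134747501 to 134748000, -0.58).

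The Gata4 exon is also where amplicons of the study's single-locus assays lie, whose readings are not reported here. The primers, matched to mm9 after conversion of unmethylated cytosines in silico, placed the bisulfite amplicons on the minus strand at 63860037 to 63860401 (365 bp, 12 CpG sites) and 63859377 to 63859749 (373 bp, 34 CpG sites). The first overlaps windows 3 to 5 and the other one windows 1 and 2. The 78 bp chromatin immunoprecipitation amplicon at 63860319 to 63860396 lies in windows 4 and 5. The bisulfite primers are shown because they mark the exact bases on which the MeDIP windows can be compared with another assay.

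Amplicon 1 forward: ggtgtgtagtaggtagaaagtaaggat

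Amplicon 1 reverse: aaactatcaccaaaaatcaaaaca

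Amplicon 2 forward: gtttgggatttagtagggtagt

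Amplicon 2 reverse: attaaaatatcttccaaaattaacc

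The normal samples of the 2 genotypes were compared with limma, since the listing had pooled them. On log2(rpm + 0.05) over all 17690 listed windows, 0 windows (0%) passed a Benjamini-Hochberg adjusted p of 0.05. An unadjusted limma p under 0.05 was found for 729 windows (4.12%). The listing needed normal samples of both genotypes to lie mostly on the same side of the adenomas. Windows with a large genotype difference were thus less likely to be listed. With n = 3 per genotype as well, the count of 0 cannot show that the genotypes are alike. In the Gata4 windows the difference of ApcMin normal from B6 normal was -0.70 to 0.09 on the log2 scale, with standard errors of 0.49 to 0.85. The 95% interval of window 2 ran from -2.47 to 1.06, and so covered differences in both directions. In the Runx3 windows the difference was -0.17 to -0.08 with standard errors of 0.20 to 0.22, and the interval of the hyper window ran from -0.63 to 0.28. All 8 members had an adjusted p of 1.00 after rounding. At Gata4 windows 2 and 3 the sign turned on B2, whose removal gave 0.33 and 0.60 in place of -0.70 and -0.31. At windows 4 and 5, both at 0.09, removal of B3 gave -0.41 and -0.70, and removal of B1 gave -0.19 at window 4. Removal of a single normal sample also turned the sign in every Runx3 window. None of these had an adjusted p under 0.05. With B2 the B6 mean was 0.21 ± 0.321 rpm (SD, n = 3) against 0.0433 ± 0.0153 rpm (SD, n = 3) at window 2. The limma fits above also took their estimate of spread from the adenomas, Ad6 included. With only the 6 normal samples, the standard errors at Gata4 were 0.24 to 0.56. Window 1 then gave -0.57 (95% interval -1.08 to -0.05, unadjusted limma p 0.033), which did not pass after adjustment. The intervals of the other Gata4 windows covered both directions.

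Among related genes, listed windows were mostly few. In a list of 9 GATA factors and cofactors, 3 genes held a hyper window (Gata4 with 5, Gata3 and Zfpm2 with 1 each) and 1 held hypo windows (Zfpm1, the GATA cofactor FOG1, with 18), against 11.1% and 14.3% of 22283 protein-coding genes. Gata1, Gata2, Gata5, Gata6 and Trps1 held none. The 9 genes of this list had a median length of 33.1 kb, against 15.5 kb over all protein-coding genes, and Zfpm2 spans 450 kb. The count of 3 includes Gata4, which is itself a gene followed here. The Gata3 window had 7 CpG sites and a log2 ratio of 0.49. At least 5 hyper windows were found in 58 of the protein-coding genes, Gata4 included.

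In a list of 11 RUNX factors, partners and corepressors, 4 genes held a hyper window and 6 a hypo window, against the same 11.1% and 14.3% of all protein-coding genes. Runx1, the blood stem cell factor of the family, held 3 hyper and 6 hypo windows, Runx2, the bone factor, 1 and 2, Cbfa2t2 2 hypo windows and Cbfa2t3 1 of each. Cbfb, the common partner of the RUNX factors, held 1 hypo window. The hypo windows of Runx1 had log2 ratios of -0.68 to -1.30, further from 0 than those of Runx3. These genes are long (median 83.8 kb in this list against 15.5 kb over all protein-coding genes), and longer genes have more windows that can be listed.

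Of 21 annotated intestinal transcription factors, 3 held a hyper window (Foxa2 with 3, Hnf4g and Pdx1 with 2 each) and 7 a hypo window, again beside 11.1% and 14.3% of all protein-coding genes. Foxa2 and Hnf4g encode a forkhead factor and a nuclear receptor of endodermal tissues, and Pdx1 a homeobox factor of pancreas and duodenum. Of 34 genes known for methylation in colon cancer, 6 held a hyper window and 12 a hypo window, beside 11.1% and 14.3% of all protein-coding genes, and the genes of this list had a median length of 37.1 kb against 15.5 kb. Those with the most were Cdh13 (3 hyper, 5 hypo), Cdh1 (5 hypo), Esr1 (5 hypo), Dapk1 (1 hyper, 3 hypo), and with 3 windows each Apc (1 hyper, 2 hypo) and Wif1 (3 hypo).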

How the data were processed

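MeDIP-seq of 11 ileum samples (3 B6 normal, 3 ApcMin normal, 5 adenomas) and 3 input libraries was used; the 7 RNA samples were not analysed here, since the gene-level table held a description of columns and no values. The authors aligned 36mer reads to mm9 with Bowtie 0.12.5, extended them to 300 bp, and averaged the coverage over 500 bp windows in steps of 250 bp. The deposited values are rpm with 2 decimals, made by the authors by dividing coverage by the uniquely aligned reads of the library. Only windows that passed their criteria were deposited (rank sum p under 0.01, ratio past 1.33 or 0.75, mean above 0.25 rpm in 1 group), and overlapping windows were merged; the p-value and ratio columns hold the authors' comparison and were not used. Merged values differed from the mean of their windows by up to 0.0625 rpm. The tables hold no read totals, so no counting interval is given and small values are limited by an unknown number of reads.

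Samples were grouped by the labels. The members and gene lists were chosen with earlier results of these data known. Regions within Gata4 and Runx3 and 1000 bp upstream were taken by gencode vM1 gene models on NCBIM37 (mm9). Log2 ratios used group means after adding 0.05 rpm. ApcMin and B6 normal samples were compared with limma 3.58.1 (R 4.3.3) on log2(rpm + 0.05) over all 17690 windows, with 3 groups and Benjamini-Hochberg adjustment, tested first on simulated data. Replicates are separate mice, except Ad4 and Ad4-1 of 1 animal; animals 4, 5 and 6 gave both tissues, so the same-animal difference was computed as a replicate block. Deviations from the group means over 13980 merged regions correlated by -0.05 to 0.03 in the 4 same-animal pairs and by -0.03 to 0.07 in the 11 others. Genes named were Gata4, Runx3 and up to 5 genes per list with the most listed windows; Cbfb, Wif1 (tied with Apc) and the GATA genes without a window were named after their values were seen. A gene of the lists and the sequence of the intronic Runx3 windows are not reported here. Of 76 list entries 75 had a protein-coding gene model. Alternatives covered the pseudocount, the normal group, the MeDIP number of the sample titles, the animal block and each sample left out.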

Additional observations from a re-analysis of the deposited data

Results flagged for a closer look

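In 4 of the 5 Gata4 windows, a single adenoma and a single normal sample stood apart from the rest of their group by Dixon's ratio, the gap to the nearest sample divided by the range of the group. Ad6 was far below the other adenomas in window 2 (ratio 0.733), window 3 (0.776), window 4 (0.765) and window 5 (0.794). B2 was far above the other normal samples in window 2 (0.912), window 3 (0.812), window 4 (0.745) and window 5 (0.72). All 8 ratios passed the critical value for the size of the group at the 95% level. The windows overlap and are not independent, and chance alone flags about 1 in 20 groups. Over all 6123 hyper windows, Ad6 was a low outlier of the adenomas in 32 (0.523%) and B2 a high outlier of the normal samples in 31 (0.506%). Both were outliers together in 5 windows, 4 of them in Gata4. Whether Ad6 and B2 differ from their groups in tissue composition, library or methylation was not tested. No Runx3 window was flagged.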

How the results depend on the processing

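No log2 ratio of the members changed sign under 21 alternatives each. The members were listed on this same difference in these samples, so a kept sign was largely fixed beforehand. At the larger merged Gata4 region (3.24), the pseudocount of 0.5 rpm gave 1.97, leaving out 1 sample gave 3.06 to 3.85, and the replicate block by animal gave 2.75. At the merged hypo region of Runx3 (-0.50), the pseudocount of 0.5 rpm gave -0.23, the block over animals 4 and 5 alone gave -0.68 (chosen after seeing the data), the block over all 3 animals gave -0.51 and leaving out 1 sample gave -0.54 to -0.44. The hyper window of Runx3 (0.54) ranged from 0.45 to 0.60 without 1 sample, with 0.59 under the block. A larger pseudocount lowers the log2 ratio of low values by construction. The number of Gata4 windows without overlap was 0 to 5 over the omissions of 1 sample, 5 without B2, without Ad6, or without both (the last chosen after seeing the data). For the hypo windows of Runx3 it was 1 to 2, and for its hyper window 1 to 1. The comparison of ApcMin with B6 normal intestine called 0 windows under all 9 alternatives, each on windows listed with both genotypes pooled. Of 350 recomputed values, 334 counted as unchanged and 16 as moved. The 210 log2 ratios of adenoma against normal were judged by sign and by the spread between samples, and 11 of them moved. Counts were judged by a 1.5-fold change. The 72 genotype differences were judged only by the side of the adjusted p threshold. Changes of sign among them, as at Gata4 windows 2 and 3 without B2, therefore counted as unchanged. List counts did not move by over 1.5 times when upstream sequence was left out or the window centre had to lie inside the gene. Values of windows that were not listed, read depth and gene expression limit what can be said of the rest of both genes.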
